A study of Mus musculus with 5 samples.

Results

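The unfolded protein response and the integrated stress response were followed through 10 genes in hearts of Akita and wild type mice. The genes were taken by name: 3 sensors (Eif2ak3, Ern1 and Atf6), 3 transcription factors (Atf4, Xbp1 and Ddit3) and 4 targets (Trib3, Asns, Herpud1 and Sdf2l1). For each, the probe set annotated with that gene symbol alone was used, and each of the 10 had exactly 1 such probe set among the 22180 genes measured. All 10 also lay above the filter on dim genes (a mean log2 signal of 4.06), so that none was lost from the test of 15528 genes.

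Akita mice, labelled Ins2+/- and described as a model of type 1 diabetes, carry a mutation of the insulin 2 gene on the C57BL/6 background. Hearts of male Akita mice aged 12 weeks gave 2 arrays, called replicates 1 and 3, and hearts of male wild type mice of the same age and background gave 3, called replicates 3, 4 and 5. Total RNA from fresh heart was measured on whole-transcript arrays, and every value below is a log2 signal or a difference of log2 signals. Nothing in the labels ties each array to its own animal. Where hearts are counted below, each stands for an array, which need not come from a separate animal. The p-values therefore rest on the spread between these samples only, with each gene's spread combined with that of all genes tested. That spread may be technical. Ins2 is an insulin gene of the pancreas, and its probe set lay under the filter at 3.69 and 3.63 in Akita hearts and at 3.65, 3.49 and 3.95 in wild type hearts. The mutation leaves a transcript in place, so these values check no label.

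The unfolded protein response is the reaction of a cell to misfolded protein in the endoplasmic reticulum (ER). Its sensors sit in the ER membrane: PERK (Eif2ak3) phosphorylates the translation factor eIF2alpha, IRE1alpha (Ern1) splices Xbp1 mRNA, and ATF6 is cut in the Golgi to release a transcription factor. Phosphorylated eIF2alpha slows general protein synthesis while favouring translation of ATF4. Other kinases reach the same step from amino acid shortage, heme deficiency or double-stranded RNA, which is why that arm is called the integrated stress response. Akita is a known example of the pathway in the pancreas, where misfolded proinsulin stresses the beta cells. Much of the signalling runs through cleavage, splicing, phosphorylation and translation, none of which a probe set that sums a whole transcript measures.

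Markers of other cell types were read before the genes themselves. The cardiomyocyte list (9 of 9 genes matched, all above the filter) had a summed linear signal of 49713 to 50424 in Akita hearts and 51708 to 53652 in wild type hearts. Atrial myocyte markers (5 of 5 matched, all above the filter) set Akita replicate 3 apart, with a summed linear signal of 16046 there and 5179 in Akita replicate 1, against 4346 to 4684 in wild type hearts. Bmp10, an atrial growth factor, lay at 5.71 and 10.83 in Akita replicates 1 and 3 and at 4.63, 4.64 and 5.18 in wild type hearts. The sum rests mostly on Nppa, the brightest of the 5, which like Bmp10 was higher in both Akita hearts than in any wild type heart. Sln and Myl7 lay at 6.71 and 6.55 in Akita replicate 1, below every wild type heart (7.74 to 8.13 and 7.83 to 8.10). In Akita replicate 3 they lay above, at 10.85 and 10.36. Myl4 overlapped between the groups. Epicardial and mesothelial markers (6 of 6 matched) summed to 273 and 447 in Akita replicates 1 and 3 and to 258 to 263 in wild type hearts. Of these, 4 lay higher, but Wt1 lay at 6.23 and 6.27 in Akita hearts and 6.29, 6.10 and 6.37 in wild type hearts. Krt19 differed by -0.10. Fibroblast markers (7 of 7) summed to 5069 and 6586 in Akita hearts, against 4698 to 4839 in wild type hearts. White adipocyte markers (5 of 6 matched) summed to 156 and 199 in Akita hearts and to 123 to 131 in wild type hearts, with Adipoq and Lep under the filter. Skeletal muscle markers (6 of 6 matched, 3 above the filter) summed to 843 and 994 in Akita hearts and to 1274 to 1336 in wild type hearts. That sum rests mostly on Acta1, at a log2 difference of -0.57. The 2 others above the filter, Tnnt3 and Myh2, lay higher, at 0.18 and 0.14. Endothelial markers (6 of 6) summed to 5085 and 5642 in Akita and 4599 to 5081 in wild type hearts. Of these, 4 lay higher, while Tek and Tie1 differed by -0.22 and -0.04. Macrophage markers (6 of 6) summed to 807 and 1055 in Akita and 1041 to 1123 in wild type hearts. The macrophage list had 4 genes lower and a median log2 difference of -0.20. Cd68 lay furthest, at -0.84 (limma adjusted p = 0.0773), while Cd163 and Mrc1 lay at 0.10 and 0.00. Of 4 erythroid markers 1 matched, with a linear signal of 42 to 51 in Akita and 33 to 44 in wild type hearts. Plasma cells and pancreatic acinar cells carry strong unfolded protein response programmes of their own. The plasma cell list (5 of 5 matched, Jchain and Tnfrsf17 under the filter) summed to 122 to 126 in Akita and 122 to 124 in wild type hearts, and the pancreatic list (4 of 6 matched) to 118 to 137 in Akita and 110 to 128 in wild type hearts. The part of these lists in the results below was not tested, and the 2 Akita arrays are therefore given one by one for the 10 genes. In heart RNA, fewer cells of a type, less RNA per cell and uneven sampling of the heart cannot be told apart. The labels do not describe how the hearts were dissected.

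The comparison of Akita with wild type hearts asked whether transcripts of the 2 stress pathways differ in the diabetic heart. None of the 10 genes passed an adjusted p of 0.05 (limma, Benjamini-Hochberg over all 15528 genes), where 0.328% of all genes tested did, 0.213% higher and 0.116% lower. At an unadjusted p under 0.05, 3 of the 10 were counted: Asns was higher in Akita hearts, and Sdf2l1 and Ddit3 were lower. Over all genes tested that share was 13.6%, made up of 4.13% higher and 9.49% lower. In 4 of the 10 genes the groups did not overlap, Asns and Ern1 higher and Sdf2l1 and Ddit3 lower in Akita hearts, where 29.7% of all genes tested did not overlap. By direction, 5 of the 10 lay higher and 5 lower, with a median log2 difference of 0.01 for the 10 and -0.0317 for all genes tested. Their median absolute difference was 0.15, against 0.14 over all genes tested. An absolute difference of at least 0.4, a size set after the values were seen, was found in 3 of the 10 genes (30%) and in 8.48% of all genes tested. With 2 arrays against 3, an exact permutation test of a single gene cannot go below 0.2 when its two-sided p doubles the smaller one-sided p. Each of the 4 non-overlapping genes took that value.

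**Figure D1:**
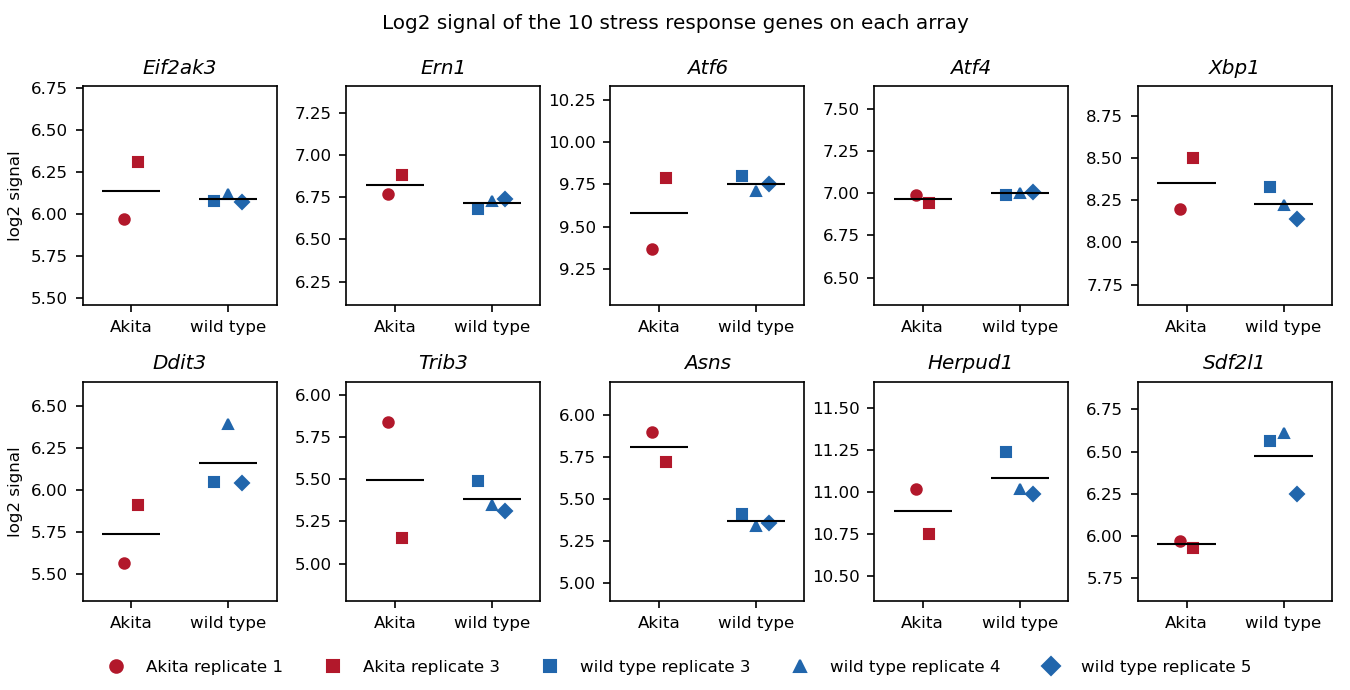
Log2 signal (vertical axes, each spanning the same number of log2 units) of the 10 genes on each array, Akita on the left and wild type on the right of each panel, with 1 point per array and a line at the group mean. Asns and Ern1 lie higher and Ddit3 and Sdf2l1 lower in both Akita hearts than in any wild type heart, while the 2 Akita points of Trib3 and Atf6 lie far apart.

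Asns and Sdf2l1 had the smallest p of the 10 genes, and Herpud1 held the most motif matches, so the upstream regions of these genes are shown here. Each line holds the 250 bases before the annotated start from RefSeq (GRCm38.p6), read 5′ to 3′ on the strand of the gene, with capitals marking matches to a searched motif. Asns lies at chr6:7693210-7693459 on the minus strand, Herpud1 at chr8:94386179-94386428 on the plus strand and Sdf2l1 at chr16:17132384-17132633 on the minus strand.
Asns: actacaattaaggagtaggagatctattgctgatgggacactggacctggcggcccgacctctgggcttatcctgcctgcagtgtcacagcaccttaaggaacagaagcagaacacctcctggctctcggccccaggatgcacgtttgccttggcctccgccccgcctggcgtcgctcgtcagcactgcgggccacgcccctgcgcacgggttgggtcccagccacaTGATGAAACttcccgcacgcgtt
Herpud1: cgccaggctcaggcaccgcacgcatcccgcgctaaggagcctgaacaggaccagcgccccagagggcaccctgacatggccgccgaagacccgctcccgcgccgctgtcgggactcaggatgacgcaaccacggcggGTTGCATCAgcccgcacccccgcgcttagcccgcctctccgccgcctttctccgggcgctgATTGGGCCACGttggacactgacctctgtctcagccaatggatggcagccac
Sdf2l1: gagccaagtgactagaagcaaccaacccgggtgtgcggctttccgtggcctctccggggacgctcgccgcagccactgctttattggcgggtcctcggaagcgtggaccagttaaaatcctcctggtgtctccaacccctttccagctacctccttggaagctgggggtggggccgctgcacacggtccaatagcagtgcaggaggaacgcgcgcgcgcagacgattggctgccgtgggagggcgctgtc

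Both strands of the 300 bases around each start (250 before and 50 after) were searched for 4 motifs known from these pathways, and no pair of matches overlapped. The C/EBP-ATF response element (CARE, TGATGNAAN), bound by ATF4 with a partner, was matched in 3.95% of the 32851 promoters in the RefSeq table. It was matched in 3 of the 9 members with a promoter there. Asns held it as TGATGAAAC from 23 to 15 bases before the start, Herpud1 as GTTGCATCA on the other strand from 113 to 105 bases before the start, and Trib3 on the other strand from 14 to 22 bases after the start. The ER stress response element II (ERSE-II, ATTGGNCCACG), bound by ATF6, was matched in 0.0365% of all promoters and in Herpud1, as ATTGGGCCACG from 52 to 42 bases before the start. Neither the longer ER stress response element (ERSE, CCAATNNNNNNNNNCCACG, in 0.119% of all promoters) nor the unfolded protein response element (UPRE, TGACGTGG, in 0.676%) was matched in any of the 9. Atf6 is not in that table. A match describes letters in this window and is not evidence of a bound site. The 3 genes with a CARE match did not lie the same way: Asns was higher in both Akita hearts, Herpud1 overlapped between the groups, and Trib3 was higher in one Akita heart and lower in the other.

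**Figure D2:**
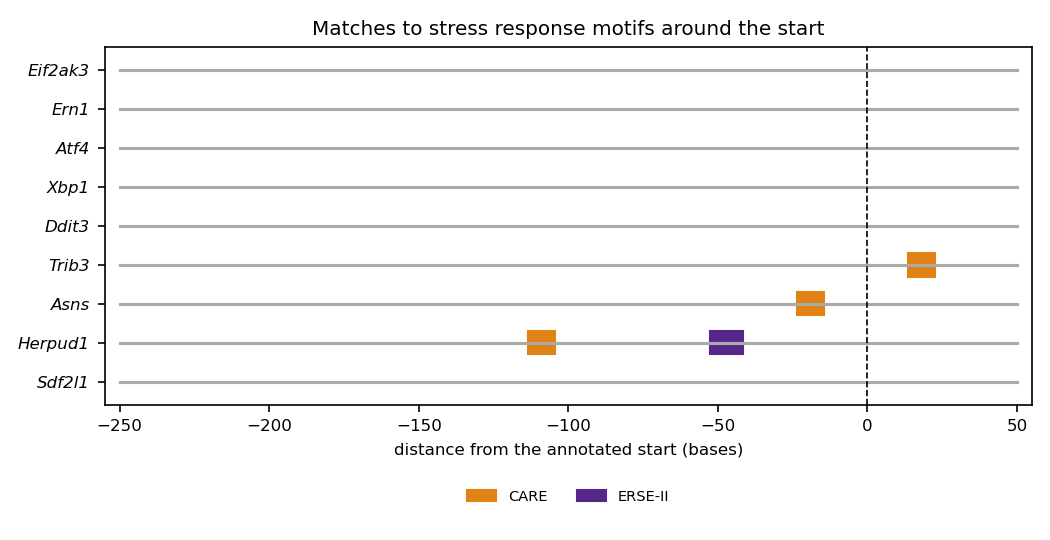
Matches to the searched motifs in the 9 members with a RefSeq promoter, drawn by distance from the annotated start (horizontal axis, in bases). Boxes stand for matches on either strand; CARE is matched in Trib3, Asns and Herpud1 and ERSE-II in Herpud1, and the other 6 genes hold no match to any of the 4 motifs.

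The log2 differences of the sensors ran from -0.17 to 0.11. Eif2ak3, which encodes PERK, lay at 5.97 and 6.31 in Akita replicates 1 and 3 and at 6.08, 6.12 and 6.07 in wild type replicates 3, 4 and 5. One Akita heart was below and the other above all wild type hearts, and the log2 difference was 0.05 (SE 0.13, adjusted p = 0.906). Ern1, the gene of IRE1alpha, lay at 6.77 and 6.88 in Akita hearts and at 6.68, 6.73 and 6.74 in wild type hearts. Both Akita values were above the wild type range, by little, and the log2 difference was 0.11 (SE 0.11, adjusted p = 0.702). Atf6 lay at 9.37 and 9.79 in Akita hearts and at 9.80, 9.71 and 9.75 in wild type hearts. Akita replicate 1 alone stood below the wild type hearts, and the log2 difference of -0.17 (SE 0.14, adjusted p = 0.647) was -0.38 without Akita replicate 3 and 0.04 without Akita replicate 1.

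Among the transcription factors, Ddit3 lay below its own wild type range in both Akita hearts, and the values of Atf4 spanned less than those of the other two. Atf4, the factor whose translation rises when eIF2alpha is phosphorylated, lay at 6.99 and 6.94 in Akita hearts and at 6.99, 7.0 and 7.01 in wild type hearts. Its log2 difference was -0.04 (SE 0.10, adjusted p = 0.917), and the 95% interval of the fold of Akita over wild type ran from 0.825 to 1.15. The sign of so small a value depended on scaling: it was 0.08 after quantile normalization again and 0.06 with the arrays centred on the median of the tested genes. Xbp1, whose mRNA is the substrate of IRE1alpha, lay at 8.20 and 8.50 in Akita hearts and at 8.33, 8.22 and 8.14 in wild type hearts. The groups overlapped, with a log2 difference of 0.12 (SE 0.13, adjusted p = 0.737), or -0.03 without Akita replicate 3. The splice forms of Xbp1 are not told apart by this probe set's summed signal. Ddit3 encodes CHOP, a factor induced by ATF4 that promotes cell death under lasting stress. It lay at 5.57 and 5.91 in Akita hearts and at 6.05, 6.39 and 6.04 in wild type hearts. Both Akita hearts were below every wild type heart, by 0.747-fold on average (log2 difference -0.42, SE 0.16, 95% interval -0.80 to -0.04), but the adjusted p was 0.325. The difference was -0.59 without Akita replicate 3 and -0.25 without Akita replicate 1. In the RefSeq table Ddit3 overlaps Mbd6 and Mars1, and the placement of the array's probes is not given in the sources used here. Mars1, a methionine tRNA synthetase, differed by -0.10 (adjusted p = 0.719).

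Targets of the integrated stress response went different ways. Asns, asparagine synthetase, makes asparagine and is a classic ATF4 target that responds to amino acid shortage. It lay at 5.90 and 5.72 in Akita replicates 1 and 3 and at 5.41, 5.34 and 5.36 in wild type replicates 3, 4 and 5. The Akita hearts stood clear of a narrow wild type range, at a mean of 5.81 ± 0.13 (SD, n = 2) against 5.37 ± 0.04 (SD, n = 3) in wild type hearts. That is 1.36-fold (log2 difference 0.44, SE 0.11, 95% interval 0.18 to 0.70, adjusted p = 0.192), the smallest p of the 10 genes. With an array left out the difference ran from 0.35 to 0.53. Trib3, a pseudokinase induced by ATF4 and CHOP that can restrain insulin signalling through AKT, lay at 5.84 and 5.15 in Akita hearts and at 5.49, 5.35 and 5.31 in wild type hearts. Akita replicate 1 was above all wild type hearts and Akita replicate 3 below them, the widest gap between the 2 Akita arrays among the 10 genes (0.69). The log2 difference of 0.11 (SE 0.20, adjusted p = 0.854) was 0.46 without Akita replicate 3 and -0.23 without Akita replicate 1.

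Targets of the ER arm lay lower or overlapped. Sdf2l1, an ER-resident partner of the chaperone BiP, is induced by ATF6 and XBP1. It lay at 5.97 and 5.93 in Akita hearts and at 6.56, 6.61 and 6.25 in wild type hearts. The 2 Akita hearts were nearly equal and below each wild type heart, at a mean of 5.95 ± 0.03 (SD, n = 2) against 6.47 ± 0.20 (SD, n = 3) in wild type hearts. That is 0.696-fold (log2 difference -0.52, SE 0.14, 95% interval -0.85 to -0.20, adjusted p = 0.203). The difference ran from -0.64 to -0.46 with an array left out. Herpud1, a membrane protein that helps to assemble the complex for ER-associated degradation, lay at 11.02 and 10.75 in Akita hearts and at 11.24, 11.02 and 10.99 in wild type hearts. Akita replicate 3 alone was below the wild type range, and the log2 difference was -0.20 (SE 0.14, adjusted p = 0.574), with -0.06 left when Akita replicate 3 was taken out.

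**Figure D3:**
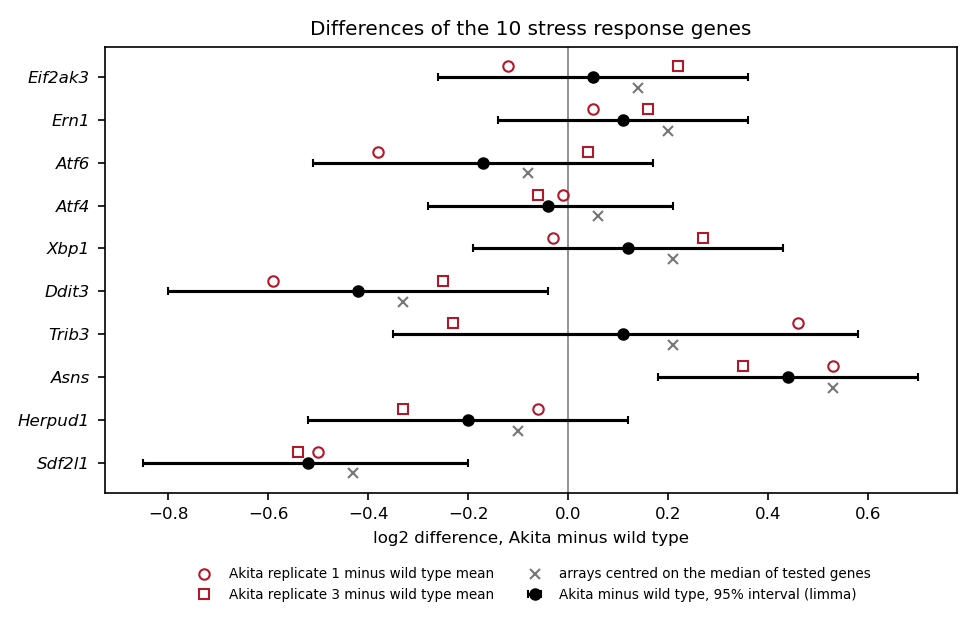
Log2 difference of Akita minus wild type (horizontal axis) for each gene: filled points with bars give the limma estimate with its 95% interval, open symbols each Akita array minus the wild type mean, and crosses the estimate with arrays centred on the median of the tested genes. The intervals of Asns, Ddit3 and Sdf2l1 do not reach 0 before adjustment over all genes, and the open symbols of Eif2ak3, Atf6, Xbp1 and Trib3 lie on both sides of 0.

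The 2 Akita arrays were also compared with each other. In 4 of the 10 genes (Eif2ak3, Atf6, Xbp1 and Trib3) they lay on opposite sides of the wild type mean. That share of 40% is close to the 37.9% of all genes tested, so it does not set the 10 genes apart. The median gap between the Akita arrays was 0.29 for the 10 genes and 0.19 for all genes tested, while the median range over the 3 wild type arrays was 0.14 for the 10 genes and 0.23 for all. Akita replicate 1 had the higher Trib3 and Asns and the lower Atf6 and Ddit3. Akita replicate 3, the array with the raised atrial markers, had the higher Xbp1 and Eif2ak3 and the lower Herpud1. Asns, Ern1, Ddit3, Sdf2l1, Herpud1 and Atf4 kept their direction without either Akita array, Atf4 at differences of -0.06 and -0.01.

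The surrounding pathway was read from 7 lists of 117 further genes, of which 108 matched a probe set of 1 symbol and 105 passed the filter on dim genes. None of the 105 passed an adjusted p of 0.05 (limma), and 11 had an unadjusted p under 0.05, 1 of them higher in Akita hearts. Over all genes tested 13.6% had one, 4.13% higher and 9.49% lower, and 8779 of 15528 lay lower at any p, so these shares stand behind each count below. For groups that did not overlap, the shares over all genes tested were 9.89% higher and 19.9% lower.

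Regulators of the sensors and of eIF2 lay lower in 16 of 19 cases (median log2 difference -0.14, or -0.04 with the arrays centred on the tested genes), with 0 past the adjusted threshold and 2 lower at an unadjusted p under 0.05. In 7 the groups did not overlap, all lower in Akita hearts. The median was -0.08 without Akita replicate 1. Eif2b4 and Eif2b2 encode subunits of eIF2B, the exchange factor that phosphorylated eIF2alpha blocks. Eif2b4 lay at 5.74 and 5.89 in Akita hearts and at 6.39, 6.45 and 6.23 in wild type hearts (log2 difference -0.54, SE 0.12, adjusted p = 0.155). Eif2b2 lay at 6.75 and 6.71 in Akita hearts and at 7.14, 7.10 and 6.95 in wild type hearts (log2 difference -0.33, SE 0.11, adjusted p = 0.289). The other subunit genes, Eif2b1, Eif2b3 and Eif2b5, were looked at after these values were seen and differed by -0.18, -0.12 and -0.17. All 5 subunit genes kept a negative difference under quantile normalization, under both ways of centring and without each array, the smallest being -0.03 for Eif2b3. Creb3, a membrane-bound relative of ATF6, differed by -0.29 (adjusted p = 0.427), Atf6b, the paralogue of Atf6, by -0.13 (adjusted p = 0.769; -0.32 and 0.07 in Akita replicates 1 and 3), and Ppp1r15a, the GADD34 gene whose product helps to remove the phosphate from eIF2alpha, by -0.22 (adjusted p = 0.586).

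ER chaperones and folding enzymes, the output of the ATF6 and XBP1 arms, showed 10 genes higher and 8 lower of 18 tested, with 0 past either threshold and a median of 0.05. The groups did not overlap in 5 genes that were higher and 1 that was lower. Besides Hsp90b1 and Pdia3, the higher ones were Pdia6, P4hb and Dnajc3, named after their values were seen, with differences of 0.16, 0.13 and 0.14. Hspa5, the gene of BiP and the standard marker of ER stress, lay at 8.97 and 8.93 in Akita hearts and at 8.91, 8.89 and 8.93 in wild type hearts (log2 difference 0.04, SE 0.10, adjusted p = 0.905). Its 95% interval for the fold of Akita over wild type ran from 0.869 to 1.22. Hsp90b1, the ER form of HSP90, differed by 0.13, Calr, calreticulin, by 0.06, Hyou1, an ER relative of HSP70, by 0.15 and Dnajb9, a BiP co-chaperone, by -0.05, each with an adjusted p over 0.6. The smallest p of the list belonged to Manf, a secreted ER stress protein, at 4.75 and 4.93 in Akita hearts and 4.96, 5.20 and 5.42 in wild type hearts (log2 difference -0.35, adjusted p = 0.380). Pdia3, a disulfide isomerase for glycoproteins, differed by 0.24 and Creld2, an ER stress-inducible protein, by -0.21 (adjusted p = 0.397 and 0.520). Sdf2, the close relative of Sdf2l1, has no probe set of its own here.

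In ER-associated degradation, the route by which misfolded proteins leave the ER, 9 genes lay higher and 11 lower of 20 tested (median -0.01), with 0 past the adjusted threshold and 1 lower at an unadjusted p under 0.05. The groups did not overlap in 1 gene that was higher and 3 that were lower. The gene at an unadjusted p under 0.05 was Syvn1, which encodes HRD1, the ubiquitin ligase of the complex that Herpud1 serves. Syvn1 lay at 6.38 and 6.46 in Akita hearts and at 6.85, 7.05 and 6.97 in wild type hearts. Both Akita hearts stood well below the wild type range (log2 difference -0.54, SE 0.11, adjusted p = 0.140), and the difference ran from -0.59 to -0.49 with an array left out. Ufd1, a partner of the extracting ATPase, differed by -0.32 (adjusted p = 0.428), and Vcp, that ATPase itself, by 0.12 (adjusted p = 0.657).

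The ATF4-responsive stress genes had 4 higher and 9 lower of 13 tested, with 0 past the adjusted threshold and a median of -0.07. The groups did not overlap in 1 gene that was higher and 2 that were lower. Gpt2, a mitochondrial alanine aminotransferase, was the 1 gene at an unadjusted p under 0.05, at 7.61 and 7.47 in Akita hearts and 8.18, 8.0 and 7.78 in wild type hearts (log2 difference -0.45, SE 0.14, adjusted p = 0.268). Atf3, a stress-induced transcription factor, differed by -0.25 (adjusted p = 0.558), Cebpg, a dimer partner of ATF4, by -0.17 (adjusted p = 0.552) and Chac1, a glutathione-degrading enzyme induced through ATF4, by -0.17 (adjusted p = 0.675; 0.01 and -0.35 in Akita replicates 1 and 3). Fgf21, a hormone released by stressed tissue, lay under the filter at 4.07 and 3.59 in Akita hearts and 3.57, 3.36 and 3.71 in wild type hearts. Ddit4, an inhibitor of mTORC1 picked out here for its spread, lay at 7.96 and 6.52 in Akita replicates 1 and 3 and at 8.54, 7.56 and 7.46 in wild type hearts, so that its difference of -0.61 became 0.11 without Akita replicate 3. Gdf15 was not analysed here.

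Amino acid synthesis and transport, the metabolic programme to which Asns belongs, had 4 genes higher and 8 lower of 12 tested (median -0.20), with 0 past the adjusted threshold. At an unadjusted p under 0.05, 1 was higher and 4 were lower. Groups did not overlap in 2 genes that were higher and in 6 that were lower. Mthfd2, a mitochondrial folate enzyme, was the higher one, at 5.05 and 5.15 in Akita hearts and 4.65, 4.30 and 4.86 in wild type hearts (log2 difference 0.50, SE 0.17, adjusted p = 0.291). Shmt2, the mitochondrial serine hydroxymethyltransferase that works beside it, lay the other way, at 8.35 and 8.58 in Akita hearts and 9.06, 8.86 and 8.78 in wild type hearts (log2 difference -0.44, SE 0.13, adjusted p = 0.249). Slc7a1, a transporter of cationic amino acids, lay at 7.13 and 7.36 in Akita hearts and at 7.61, 7.66 and 7.85 in wild type hearts (log2 difference -0.46, SE 0.13, adjusted p = 0.224). The other transporters at an unadjusted p under 0.05, named after their values were seen, were Slc1a5 (glutamine) and Slc3a2 (the heavy chain of several transporters), with differences of -0.43 (-0.66 and -0.21 in Akita replicates 1 and 3) and -0.27. Psat1, an enzyme of serine synthesis, differed by 0.25 (adjusted p = 0.443), and Phgdh, the first enzyme of that route, lay under the filter at 3.90 and 3.92 in Akita hearts and 4.01, 3.97 and 3.43 in wild type hearts. Asns, at a difference of 0.44, thus lay on the side of Mthfd2 and Psat1 within this programme, and opposite to Shmt2, Slc7a1, Slc1a5 and Slc3a2. The synthesis enzymes lay both ways. Of the others above the filter, named after their values were seen, Aldh18a1 differed by 0.15, and Cth and Psph by -0.25 and -0.16. The transporters did not all lie lower. Of the others above the filter, also named after their values were seen, Slc38a2 differed by 0.28 (-0.02 and 0.57 in Akita replicates 1 and 3). Slc7a5 differed by -0.32 and Slc1a4 by -0.02.

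Cytosolic tRNA synthetases, which ATF4 also activates, lay near 0 with 5 higher and 6 lower of 11 tested (median -0.01) and 0 past the adjusted threshold. The groups did not overlap in 1 gene that was higher and 2 that were lower. Wars, the tryptophan enzyme, was lower at an unadjusted p under 0.05, at 7.83 and 8.24 in Akita hearts and 8.56, 8.36 and 8.29 in wild type hearts (log2 difference -0.37, adjusted p = 0.365). Yars, the tyrosine enzyme, differed by -0.24 (-0.44 and -0.03 in Akita replicates 1 and 3) and Sars, the serine enzyme, by 0.12 (adjusted p = 0.552 and 0.666). The mitochondrial stress list, another way into the integrated stress response, had 7 higher and 5 lower of 12 tested (median 0.02) and 0 past the adjusted threshold, and the groups did not overlap in 1 gene each way. Its gene at an unadjusted p under 0.05 was Dele1, whose product carries a signal from stressed mitochondria to the eIF2alpha kinase HRI. Dele1 lay at 9.04 and 9.19 in Akita hearts and at 9.67, 9.53 and 9.50 in wild type hearts, with both Akita hearts below the wild type range (log2 difference -0.45, SE 0.12, adjusted p = 0.195). The mitochondrial chaperone Hspd1 and the protease subunit Clpp differed by 0.12 and 0.06 (adjusted p = 0.693 and 0.863).

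**Figure D4:**
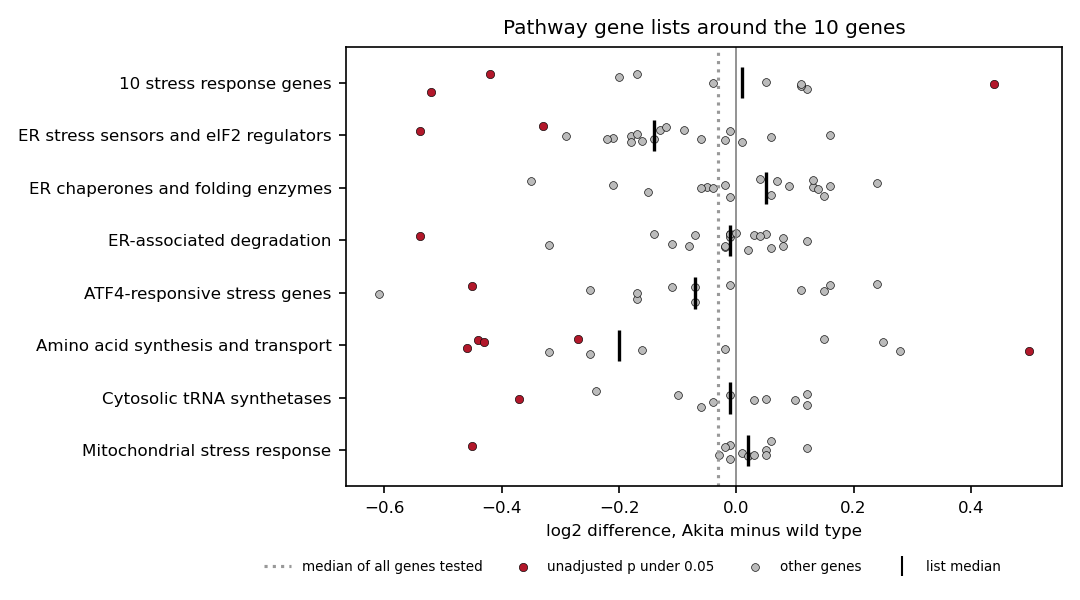
Log2 difference of Akita minus wild type (horizontal axis) for each tested gene of the 10 and of the 7 surrounding lists (rows), with list medians as black bars and the median of all genes tested as a dotted line. Red points have an unadjusted p under 0.05; the list medians run from -0.20 to 0.05 and no gene shown passes the adjusted threshold.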

How the data were processed

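The authors deposited a log2 signal for each probe set on each of 5 arrays of heart RNA. These values were made with Affymetrix Expression Console, per the submitters' processing notes. The sources used here give no version, summarisation or genome build, and the log base was read from the range of 1.27 to 13.66. Normalization between arrays, if it was done, would hide a shift common to most genes.

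The platform annotation gave 23521 of 41345 probe sets exactly 1 symbol (22180 genes). It gave 1814 several, and 16010 were unnamed here. Each gene took its probe set of highest mean, and the dimmest genes, below the 30th percentile, were dropped, which kept 15528. Groups were read from the sample titles. The difference of Akita minus wild type came from limma 3.58.1 in R 4.3.3 (lmFit, eBayes, two-sided p), and p-values were adjusted by Benjamini-Hochberg over the 15528 genes. There were 3 residual degrees of freedom, 4.38 from the prior, and a median within-group SD of 0.144. The fit was tested on simulated data. The number of arrays limits the precision.

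The 10 genes, the lists and the tests were chosen with earlier results of these data known, so no test was made over a list. Named from each list were the 3 tested genes of smallest p and a fixed set of well known targets. Promoters came from RefSeq (GRCm38.p6). Alternatives were other filters, probe set averaging, quantile normalization, centring, an intensity trend, array weights, an unmoderated model, other thresholds and each array left out. Python 3.11.15 with pandas 2.3.3 and matplotlib 3.10.9 made the tables and figures.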

Additional observations from a re-analysis of the deposited data

How the results depend on the processing

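None of the 10 genes passed the threshold in any of the 14 alternative fits, nor at an adjusted p of 0.1 or by a 1.5-fold change with unadjusted p under 0.05; the lowest adjusted p among them was 0.124, for Asns without Akita replicate 3. Changing the filter, averaging probe sets (each of the 10 genes has 1), the intensity trend and the unmoderated model cannot change these differences. Agreement in those settings was therefore fixed in advance. Of 140 differences of single genes under all 14 alternatives, 134 kept their direction. The 6 that did not were Atf4 with quantile normalization again (0.08) and with the arrays centred on the tested genes (0.06), Atf6 (0.04) and Trib3 (-0.23) without Akita replicate 1, and Xbp1 (-0.03) and Eif2ak3 (-0.12) without Akita replicate 3. With an array left out Atf6 ran from -0.38 to 0.04, Trib3 from -0.23 to 0.46, Xbp1 from -0.03 to 0.27 and Eif2ak3 from -0.12 to 0.22. Asns ran from 0.35 to 0.53 over the alternatives (adjusted p 0.124 to 0.531), Sdf2l1 from -0.64 to -0.43 (0.138 to 0.543) and Ddit3 from -0.59 to -0.25 (0.160 to 0.700).

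The count over all genes tested was 51. It was 86 with no filter, 32 with quantile normalization again, 30 with the arrays centred on the tested genes, 197 with an intensity trend and robust prior, 28 with array weights, 0 with the unmoderated linear model (1726 at an unadjusted p under 0.05), 96 at an adjusted p of 0.1 and 342 by a 1.5-fold change with unadjusted p under 0.05. With an array left out it ran from 9 (without wild type replicate 3) to 44 (without Akita replicate 1), with 14 without wild type replicate 4, 21 without wild type replicate 5 and 11 without Akita replicate 3. Where an Akita array was left out, the lone one was assumed to vary like the wild type arrays.

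Centring on the tested genes, an alternative chosen after seeing the data, adds the same amount to every difference: the median of all genes tested became 0.0625 (as deposited -0.0317, with quantile normalization 0.0018, centred on all genes -0.0633). The median of the 10 genes was 0.10 with quantile normalization and 0.10 with this centring, and ran from -0.05 to 0.02 with an array left out. In the same 2 settings the list medians were -0.07 and -0.04 for sensors and eIF2 regulators, 0.11 and 0.15 for chaperones, 0.06 and 0.09 for ER-associated degradation, 0.01 and 0.02 for ATF4-responsive genes, 0.08 and 0.08 for tRNA synthetases and 0.08 and 0.11 for the mitochondrial list, and with this centring -0.11 for amino acid genes. Centred on all genes, the ATF4-responsive and mitochondrial medians were -0.10 and -0.01. The ATF4-responsive median was -0.11 with a filter at the 50th percentile and -0.11 with array weights, and the amino acid median was -0.09 with no filter. With an array left out the medians ran from -0.17 to -0.08 for sensors and eIF2 regulators, -0.23 to -0.14 for amino acid genes, 0.00 to 0.11 for chaperones, -0.05 to 0.06 for degradation, -0.09 to -0.03 for ATF4-responsive genes, -0.08 to 0.08 for tRNA synthetases and 0.00 to 0.05 for the mitochondrial list. The causes of these shifts were not tested. No paired analysis was made, because the labels do not say that a replicate number found in both groups marks a pair.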
